A study of Homo sapiens with 48 samples.

Results

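Levels and decay were followed for 10 human genes whose non-coding transcripts carry small nucleolar RNAs (snoRNAs): GAS5, SNHG1, SNHG5, SNHG6, SNHG7, SNHG8, SNHG12, SNHG15, SNHG16 and ZFAS1. They were chosen by name, 10 of 58721 annotated genes, and all 10 passed the filters on low values in both sets of libraries, so none was left out. The cells were DLD-1, a human colorectal adenocarcinoma line. All libraries came from cells that were TIR1+, TIR1 being the plant receptor that, with auxin bound, marks any protein carrying a degron tag (AID) for destruction. In CNOT1-AID cells the degron was placed on the genomic CNOT1 gene, in CNOT4-AID cells on CNOT4, and parental cells were untagged.

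In the steady-state set, CNOT1-AID, CNOT4-AID and parental cells were given 1 mM auxin or left untreated for 8 h or 24 h (12 groups of 2 libraries). In the triptolide set, the same 3 lines were given 1 mM auxin for 2 h and then 1 µM triptolide, a drug that stops transcription from starting, for 0, 3, 6 or 12 h (12 groups of 2 libraries). This second set held no library without auxin. Ribosomal RNA was depleted from 500 ng of total RNA to which ERCC spike-in RNA had been added. Nothing in the labels says whether the 2 libraries of a group came from separate cultures. The p-values rest on the spread between such libraries, pooled over the groups of a set and moderated by the spread of all genes tested. For slopes over time, departures from a straight line count as spread too. The spread between libraries may be technical variation, so small p-values do not show that a difference would recur in new cultures. Protein was not measured.

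Most vertebrate snoRNAs are cut from the introns of host genes. The spliced exons of a non-coding host leave the nucleus, are read by ribosomes on short open reading frames, and are then degraded, for several hosts by nonsense-mediated decay. Many hosts share a 5′ terminal oligopyrimidine start, a C followed by an unbroken run of C and T, with mRNAs for ribosomal proteins. CNOT1 is the scaffold of CCR4-NOT, the main complex that shortens poly(A) tails, and CNOT4 is a ubiquitin ligase that associates with it. The design compares each tagged line with and without auxin, and the decay of RNA between the lines.

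The start of each transcript is shown because the oligopyrimidine start is what hosts are known to share. RefSeq (GRCh38.p14) gave a start for 8 of the 10 genes; SNHG6 and SNHG15 had no entry. Each window runs 5′ to 3′ over 40 bases, from 10 bases before the annotated start, and capitals mark the longest unbroken run of C and T that begins with C.
GAS5: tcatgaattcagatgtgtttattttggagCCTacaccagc
SNHG1: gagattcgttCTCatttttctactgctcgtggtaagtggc
SNHG5: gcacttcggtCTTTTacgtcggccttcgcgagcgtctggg
SNHG7: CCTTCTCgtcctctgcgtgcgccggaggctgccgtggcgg
SNHG8: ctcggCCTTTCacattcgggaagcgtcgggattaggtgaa
SNHG12: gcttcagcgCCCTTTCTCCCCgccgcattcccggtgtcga
SNHG16: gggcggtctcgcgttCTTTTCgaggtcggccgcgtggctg
ZFAS1: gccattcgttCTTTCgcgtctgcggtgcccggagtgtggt
The windows lie at chr1:173869016-173869055 (minus strand, GAS5), chr11:62855856-62855895 (minus, SNHG1), chr6:85678704-85678743 (minus, SNHG5), chr9:136728155-136728194 (minus, SNHG7), chr4:118278752-118278791 (plus, SNHG8), chr1:28581844-28581883 (minus, SNHG12), chr17:76557754-76557793 (plus, SNHG16) and chr20:49278632-49278671 (plus, ZFAS1).

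A C followed by at least 4 bases of C or T stood exactly at the annotated start of 3 of the 8 (SNHG5, SNHG12 and ZFAS1; 37.5%), against 4.04% of 27305 promoters in the table. A run of at least 5 such bases beginning with C, anywhere in the window, was found in 6 of 8 (75.0%), against 44.8% of all promoters. Only the transcribed strand was read, and a run can hold shorter runs. In SNHG1 the run at the start was 3 bases long and was followed by an A. RefSeq and GENCODE 29 starts were at the same base for SNHG7 and 2 bases apart for SNHG16. They were 15 bases apart for SNHG5, 29 for SNHG1, 53 for SNHG8, 163 for GAS5, 464 for ZFAS1 and 1259 for SNHG12. The window, and whether a run is found in it, thus depends on the annotation used.

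Depth can be compared within the triptolide set only, and the composition of the libraries varied. The triptolide set held 18216427 to 26723618 counts per library, and the depth behind the steady-state values, which are length-corrected relative abundances (TPM), is unknown. The share of TPM from protein-coding genes ran from 30.6% (CNOT4-AID with auxin for 8 h, replicate 1) to 54.7%. The 2 parental libraries at 0 h of triptolide differed from each other more than any other pair (SD of the log2 difference 0.679, against 0.256 to 0.427 in the other triptolide pairs). ERCC RNA took 0.941% to 3.92% of counts, with the highest share in CNOT4-AID replicate 2 at 12 h. Colon epithelium was represented by 10 of 11 marker genes averaging 1 TPM or more. With auxin in CNOT1-AID cells 7 of the 11 were lower at 8 h (median log2 fold change -0.518, with 2 higher) and 7 at 24 h (-0.621, with 3 higher). No marker of the 11 passed in parental cells. Of 9 markers of blood, fibroblasts and endothelium the highest averaged 1.0 TPM. Of these 9, 2 were tested, and both were higher in CNOT1-AID cells with auxin at 24 h; the part of either marker list in the results was not tested. CNOT1 mRNA stood at 46.6 ± 2.34 TPM in CNOT1-AID cells with auxin for 8 h and 54.9 ± 8.42 TPM untreated, and at 42.9 ± 4.26 TPM with auxin for 24 h and 63.7 ± 6.62 TPM untreated (SD, n = 2 each). Both falls passed after scaling in limma (log2 -0.52 and -0.82, adjusted p = 4.6e-06 and 1.1e-08). In untreated CNOT1-AID cells it was 0.674 of the untreated parental level (adjusted p = 3.07e-07). CNOT4 mRNA in CNOT4-AID cells did not pass (9.72 ± 1.5 TPM with auxin for 8 h and 9.39 ± 0.523 TPM untreated), while in CNOT1-AID cells with auxin it was 3.15-fold higher at 8 h and 4.08-fold higher at 24 h. The degron acts on the protein, so these levels do not check it.

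GAS5, named for its accumulation in growth-arrested cells, was the most abundant host in untreated cells, with a median of 219 TPM over 12 untreated libraries (198 to 235 TPM). SNHG1, host of several C/D box snoRNAs, followed at 188 TPM (164 to 215 TPM), and the 2 ranges overlapped. ZFAS1, which lies antisense beside ZNFX1, had a median of 132 TPM (118 to 145 TPM), below every library of SNHG1. SNHG8 stood at 95.9 TPM, below every ZFAS1 library (88.5 to 105 TPM). SNHG16 at 71.7 TPM, SNHG5 at 66.8 TPM and SNHG12 at 60.3 TPM formed the next step, and the ranges of neighbours overlapped. SNHG6 at 30.3 TPM, SNHG15 at 26.8 TPM and SNHG7 at 24.6 TPM were lowest, with overlapping ranges (25.9 to 39.2, 24.1 to 29.3 and 21.3 to 28.7 TPM). TPM is corrected for length, so these orders compare levels between genes.

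**Figure D1:**
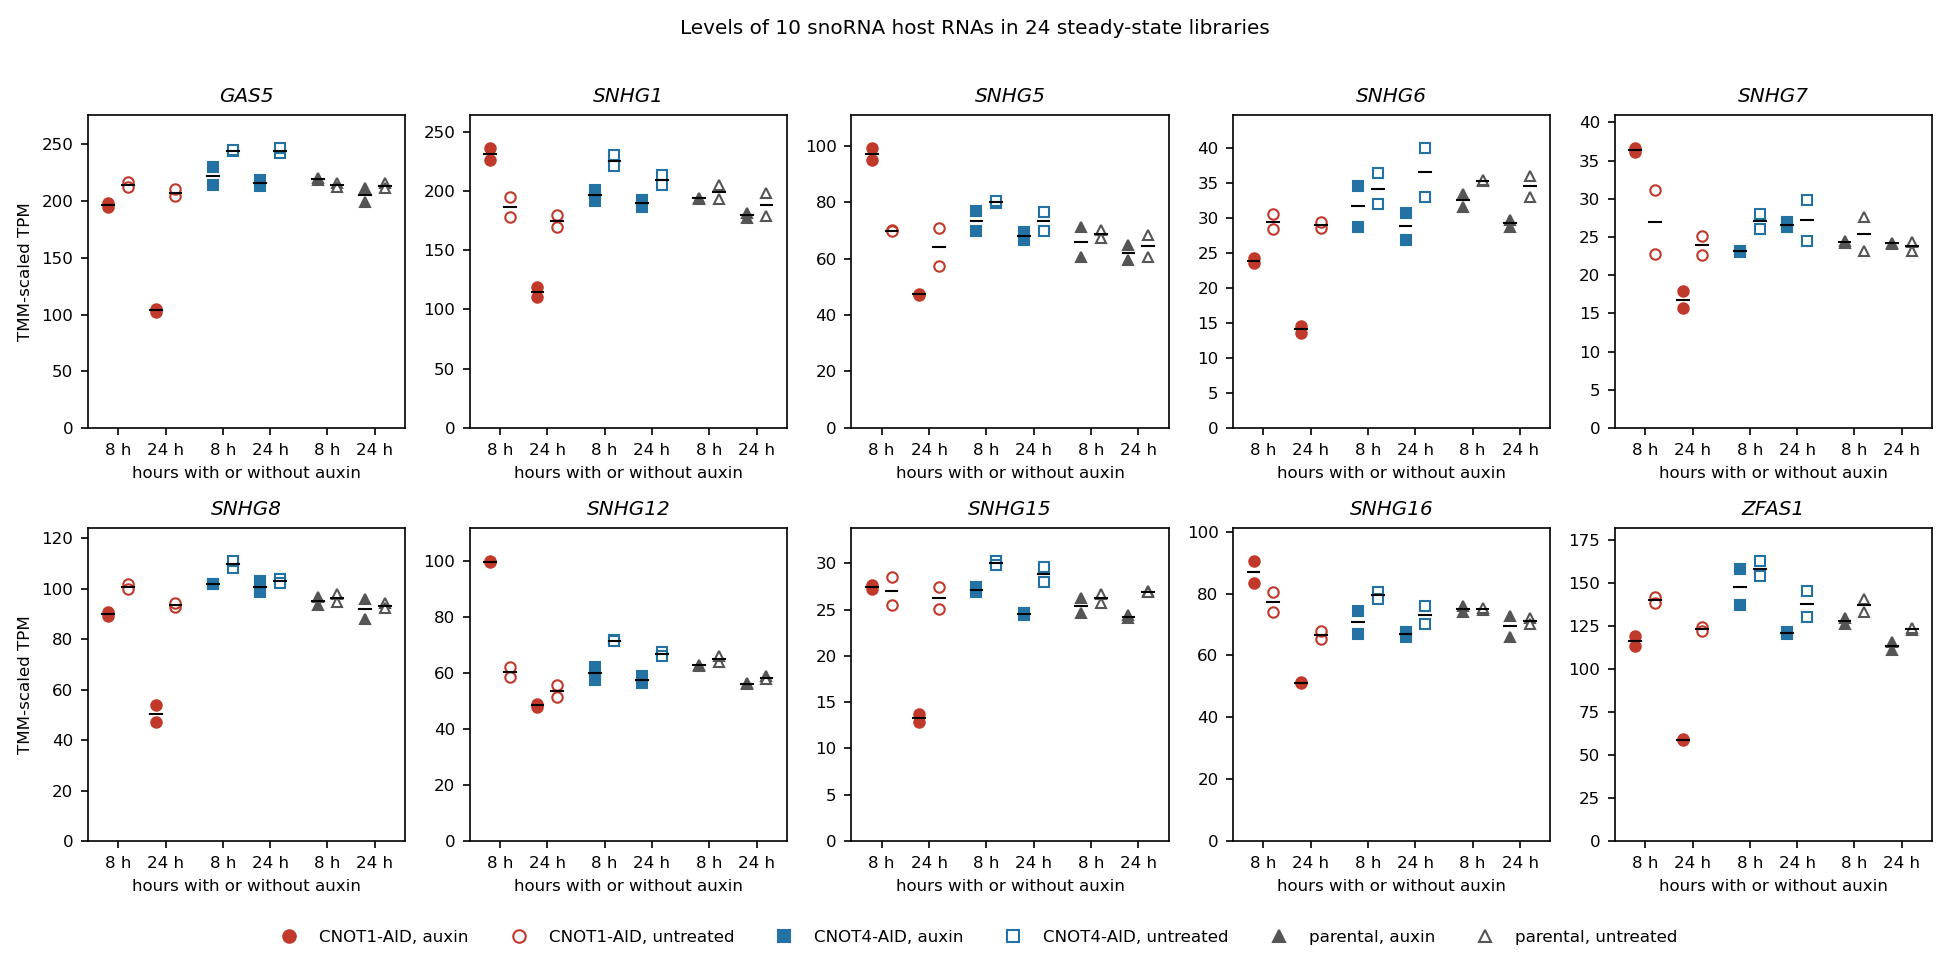
TMM-scaled TPM of each host RNA (y axis, from 0) in 24 steady-state libraries, by line and by hours with or without auxin; filled symbols are auxin, open symbols untreated, and bars are means of 2 libraries. In CNOT1-AID cells SNHG12 stood at 99.9 and 100.0 with auxin at 8 h, above all untreated libraries, and GAS5 at 105.0 and 102.5 with auxin at 24 h, below them.

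With auxin for 8 h in CNOT1-AID cells the hosts split into a group that rose and a group that fell. SNHG12, SNHG5, SNHG7, SNHG1 and SNHG16 were higher, SNHG6, ZFAS1, SNHG8 and GAS5 were lower, and SNHG15 did not pass the test (limma, Benjamini-Hochberg adjusted p threshold 0.05). The 5 higher hosts compare with 33.1% of all 14921 genes tested and the 4 lower ones with 29.8%, and neither count stands far from these shares. Values per library are given after scaling by the trimmed mean of M values (TMM), the scale on which the test was run.

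SNHG12, host of several H/ACA box snoRNAs, showed the largest rise. Its scaled TPM was 99.9 and 100.0 in CNOT1-AID cells with auxin, against 62.4 and 58.6 in untreated cells, with no overlap. The log2 fold change was 0.72 ± 0.048 (SE; adjusted p = 1.24e-09), or 1.65-fold. SNHG5, host of the SNORD50 snoRNAs, had 99.0 and 95.0 with auxin and 70.1 and 69.7 untreated (log2 0.47 ± 0.091, adjusted p = 0.000267). SNHG1 had 235.8 and 226.4 with auxin and 178.3 and 194.6 untreated (0.31 ± 0.059, adjusted p = 0.000215). For both, each auxin library stood above each untreated one. SNHG7, host of SNORA17 copies, had 36.1 and 36.6 with auxin and 31.1 and 22.8 untreated (0.44 ± 0.12, adjusted p = 0.00395), the untreated pair being far apart. SNHG16, host of the SNORD1 family, had 90.4 and 83.3 with auxin and 80.6 and 74.2 untreated (0.17 ± 0.062, adjusted p = 0.0289).

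ZFAS1 had scaled TPM of 113.6 and 119.1 with auxin, against 141.7 and 138.6 untreated, and SNHG6, host of SNORD87, had 23.6 and 24.3 with auxin, against 30.6 and 28.4 untreated. Their log2 fold changes were -0.27 ± 0.060 (adjusted p = 0.00102) and -0.30 ± 0.097 (adjusted p = 0.014). SNHG8 had 90.6 and 89.1 with auxin and 101.9 and 99.8 untreated, and GAS5 had 195.2 and 198.7 with auxin and 216.7 and 212.1 untreated. These small differences (-0.17 ± 0.055 and -0.12 ± 0.041) passed with adjusted p of 0.0146 and 0.0161. SNHG15 had 27.2 and 27.7 with auxin and 28.5 and 25.5 untreated, which overlapped (0.03 ± 0.058, adjusted p = 0.719).

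The falls at 8 h depended on the scaling. Under ERCC scaling the median of all genes moved up by 0.41 (log2), 7762 of 9219 called genes were higher in place of 4933 of 9374, and 8 hosts were higher and none lower: SNHG8 and GAS5 passed as higher (0.30 and 0.35), and ZFAS1 and SNHG6 did not pass (0.20 and 0.17). Without scaling (median 0.26) 7 hosts were higher and none lower, with GAS5 at 0.17, SNHG8 at 0.13 and ZFAS1 at 0.03. In the deposited TPM the sum over the 10 hosts was 1223.8 and 1207.1 with auxin, against 868.4 and 970.1 untreated. Protein-coding genes took 51.7% and 52.1% of TPM with auxin and 42.6% and 46.3% untreated, and the part of this share in the result was not tested. The falls of GAS5, SNHG8 and SNHG6 also lost the call when untreated replicate 1 was left out (-0.11, -0.15 and -0.24). Leaving out auxin replicate 1 ended those of GAS5 (-0.11) and SNHG6 (-0.27) and the rise of SNHG16 (0.11), leaving out auxin replicate 2 ended the fall of SNHG8 (-0.16), and leaving out untreated replicate 2 ended the rises of SNHG16 (0.11) and SNHG7 (0.22). SNHG12, SNHG5 and SNHG1 rose under each alternative run.

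With auxin for 24 h all 10 hosts were lower in CNOT1-AID cells than in untreated ones, against 34.8% of all genes tested. Their median log2 fold change was -0.745, against -0.0064 over all genes. ZFAS1 fell to 59.2 and 58.5 scaled TPM with auxin, against 124.5 and 122.4 untreated (log2 -1.06 ± 0.060, adjusted p = 8.6e-11), which is 0.479 of the untreated level. GAS5 fell to 105.0 and 102.5 with auxin, against 204.5 and 210.5 untreated (-1.0 ± 0.041, adjusted p = 1.54e-12). SNHG6 fell to 14.6 and 13.6 with auxin, against 28.6 and 29.5 untreated (-1.02 ± 0.097, adjusted p = 6.36e-08). These 3 hosts stood near a fold of 0.5 and their groups were far apart.

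SNHG15, a host of SNORA9 known for a short-lived transcript, fell to 13.7 and 12.9 scaled TPM with auxin at 24 h, against 25.1 and 27.4 untreated (-0.95 ± 0.058, adjusted p = 2.23e-10). SNHG8 fell to 47.0 and 53.8 with auxin, against 92.7 and 94.5 untreated (-0.89 ± 0.055, adjusted p = 2.33e-10), and SNHG1 to 119.3 and 110.4 with auxin, against 179.7 and 169.1 untreated (-0.60 ± 0.059, adjusted p = 8.83e-08). The other 4 fell less: SNHG7 by 0.49 ± 0.12, SNHG5 by 0.43 ± 0.091, SNHG16 by 0.38 ± 0.062 and SNHG12 by 0.14 ± 0.048 on the log2 scale, with adjusted p from 3.9e-05 to 0.0133. SNHG12, with 49.2 and 47.9 with auxin and 51.6 and 55.7 untreated, was the closest to no change, and it lost the call without untreated replicate 2 (-0.09) or auxin replicate 2 (-0.11).

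ERCC scaling, which moved the median of all genes up by 0.29 at 24 h and made 6874 of 9842 called genes higher in place of 5472 of 10670, kept 5 hosts lower: ZFAS1, GAS5, SNHG6, SNHG15 and SNHG8. SNHG12 then stood higher at 0.21, and SNHG1, SNHG7, SNHG5 and SNHG16 did not pass (-0.24, -0.14, -0.07 and -0.02). Without scaling 6 were lower, SNHG1 being the addition, and SNHG12 stood at 0.12. The deposited TPM of the 10 hosts summed to 669.8 and 625.8 with auxin and 911.5 and 882.8 untreated. Protein-coding genes took 54.7% and 52.3% of TPM with auxin and 47.2% and 44.9% untreated, and the part of this in the smaller falls was not tested.

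**Figure D2:**
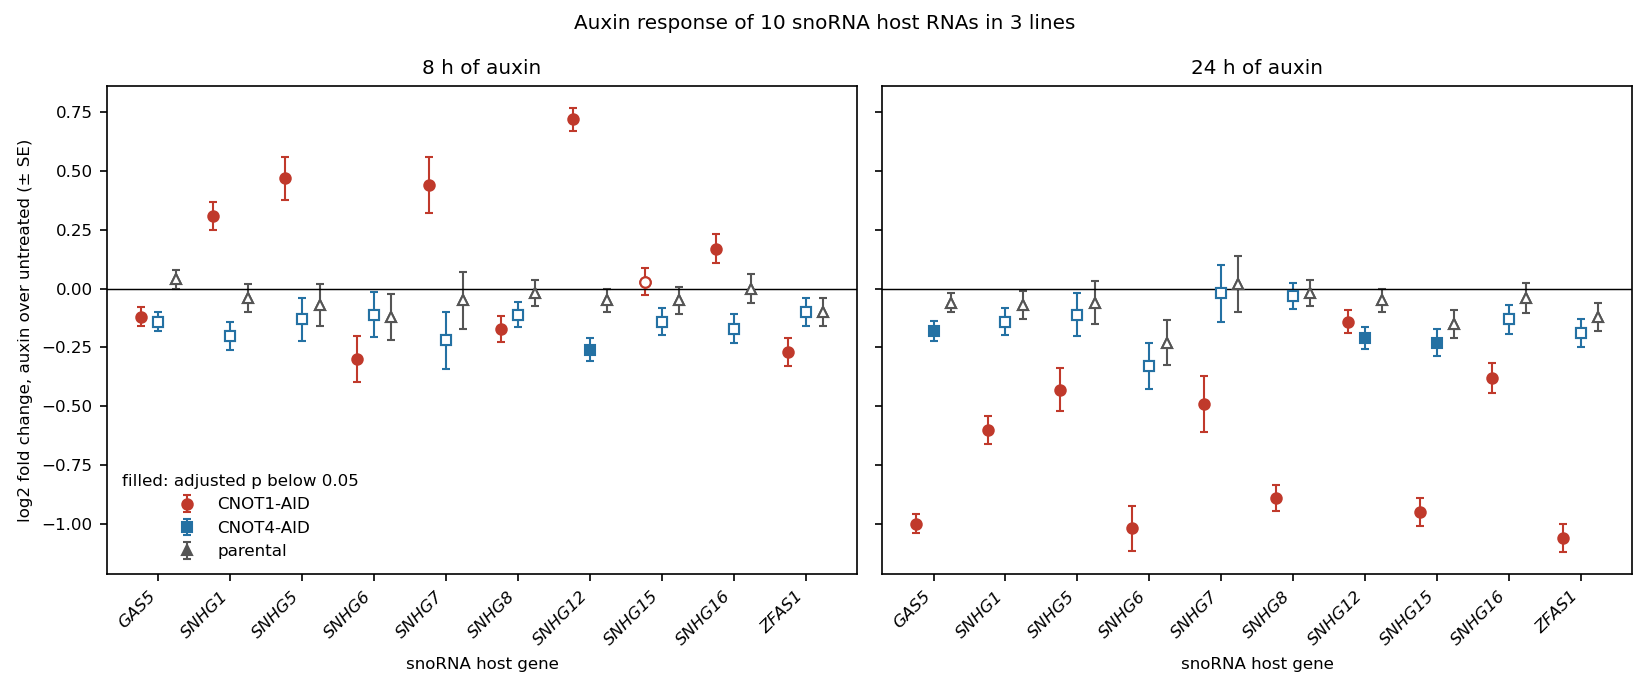
Log2 fold change of auxin over untreated (y axis, ± SE) for each host (x axis) in CNOT1-AID, CNOT4-AID and parental cells, at 8 h (left) and 24 h (right); filled symbols have an adjusted p below 0.05. At 8 h the CNOT1-AID points run from -0.30 (SNHG6) to 0.72 (SNHG12), and at 24 h all 10 lie below 0, down to -1.06 (ZFAS1).

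From 8 h to 24 h the auxin response of all 10 hosts moved downward in CNOT1-AID cells, whichever way each had stood at 8 h. The difference between the responses (24 h minus 8 h) was tested in the same limma fit: 10 of 10 were lower, while 36.3% of all genes differed in either direction, and the members' median was -0.87 against -0.00089 over all genes. It was -0.98 ± 0.083 for SNHG15 (adjusted p = 4.07e-07), -0.93 ± 0.17 for SNHG7, -0.91 ± 0.083 for SNHG1, -0.90 ± 0.13 for SNHG5, -0.87 ± 0.058 for GAS5 and -0.86 ± 0.067 for SNHG12. ZFAS1 (-0.79 ± 0.086), SNHG6 (-0.72 ± 0.14), SNHG8 (-0.72 ± 0.077) and SNHG16 (-0.54 ± 0.088) moved less. The highest adjusted p of the 10 was 0.000699 (SNHG6). All 10 kept the call under each of 17 alternatives, the 3 other scalings and the 8 left-out libraries among them, with values between -1.15 and -0.49. The difference rests on separate untreated libraries for each time.

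Set against the response of parental cells to the same auxin, 5 hosts differed at 8 h, against 50.3% of all genes. SNHG12 (0.77 ± 0.067, adjusted p = 8.81e-08), SNHG5 (0.54 ± 0.13, 0.00242), SNHG7 (0.49 ± 0.17, 0.0221) and SNHG1 (0.35 ± 0.083, 0.0024) responded more in CNOT1-AID cells. GAS5 responded lower by a small margin (-0.16 ± 0.058, 0.0316), a difference that turned to 0.38 under ERCC scaling and 0.04 without scaling. GAS5 also lost the call without parental untreated replicate 2 (-0.15), either parental auxin replicate (-0.16 and -0.16), CNOT1-AID untreated replicate 1 (-0.14) or auxin replicate 1 (-0.14). SNHG7 lost it without parental untreated replicate 2 (0.37), parental auxin replicate 1 (0.48), CNOT1-AID untreated replicate 2 (0.27) or auxin replicate 2 (0.48).

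At 24 h, 9 of 10 hosts responded lower in CNOT1-AID than in parental cells, against 61.9% of all genes that differed in either direction. The differences ran from -0.94 ± 0.058 for GAS5 and -0.94 ± 0.086 for ZFAS1 to -0.34 ± 0.088 for SNHG16, and SNHG12 did not pass (-0.09 ± 0.067, adjusted p = 0.264). SNHG5 lost the call without parental untreated replicate 2 (-0.29), parental auxin replicate 1 (-0.31) or CNOT1-AID untreated replicate 2 (-0.22), and SNHG7 without CNOT1-AID untreated replicate 1 (-0.44) or auxin replicate 1 (-0.42). ERCC scaling left 4 hosts called (GAS5, ZFAS1, SNHG8 and SNHG15), and turned SNHG16 to 0.01.

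In CNOT4-AID cells the hosts changed little with auxin. At 8 h SNHG12 alone passed in limma, as lower, against 7 of all 14921 genes that were lower (0.288% differed in either direction). The scaled TPM of SNHG12 was 62.2 and 57.7 with auxin and 71.8 and 71.5 untreated (-0.26 ± 0.048, adjusted p = 0.0368). The call ended without untreated replicate 1 (-0.25), untreated replicate 2 (-0.26) or auxin replicate 2 (-0.20). All 10 hosts lay below 0 and 5 had an unadjusted p below 0.05, as did 1596 of 14921 genes. At 24 h GAS5 (-0.18 ± 0.041, adjusted p = 0.025), SNHG12 (-0.21 ± 0.048, 0.0245) and SNHG15 (-0.23 ± 0.058, 0.0399) were lower, against 361 of all 14921 genes (4.51% differed in either direction). GAS5 had 213.0 and 218.7 scaled TPM with auxin and 242.5 and 246.6 untreated, without overlap. Under ERCC scaling these 3 stood at 0.08, 0.05 and 0.03, and 0 hosts passed with that scaling or with none. Without untreated replicate 1, auxin replicate 1 or auxin replicate 2, 0 of these 3 passed (GAS5 at -0.19, -0.16 and -0.20, SNHG12 at -0.20, -0.18 and -0.24, and SNHG15 at -0.19, -0.23 and -0.22), and without untreated replicate 2 GAS5 did not (-0.17).

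The hosts' response in CNOT4-AID cells did not differ from that in parental cells in limma: 0 of 10 passed at 8 h, against 0.0134% of all genes, and 0 at 24 h, against 0.067%. At an unadjusted p below 0.05 there were 2 hosts at 8 h (1061 of all 14921 genes) and 1 at 24 h (2324), and 0 passed under each alternative. In parental cells 0 hosts passed at 8 h, against 0.0201%, and 0 at 24 h, against 0.0%. At an unadjusted p below 0.05 there were 0 and 2 hosts (835 and 755 of all genes), and each alternative also gave 0. The parental log2 fold changes ran from -0.12 (SNHG6) to 0.04 (GAS5) at 8 h and from -0.23 (SNHG6) to 0.02 (SNHG7) at 24 h.

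In untreated CNOT1-AID cells, 8 h and 24 h together, 2 of 10 hosts were lower than in untreated parental cells in limma. They were SNHG6 (-0.25 ± 0.069, adjusted p = 0.0152) and SNHG12 (-0.11 ± 0.034, 0.0244). Of all 14921 genes 1584 were lower, and 20.7% differed in either direction. Without scaling, or with ERCC scaling, 0 hosts passed. SNHG12 also lost the call without parental untreated 8 h replicate 2 (-0.10) or without CNOT1-AID untreated 8 h replicate 2 (-0.09) or 24 h replicate 1 (-0.09), and without parental untreated 24 h replicate 1 neither did (SNHG6 -0.22, SNHG12 -0.11). SNHG1 passed without CNOT1-AID untreated 8 h replicate 2 (-0.13) or parental untreated 24 h replicate 2 (-0.14). In untreated CNOT4-AID cells 7 of 10 hosts were higher after TMM scaling, against 1563 of all 14921 genes (20.2% differed in either direction). The hosts were led by GAS5 (0.19 ± 0.029), SNHG5 (0.20 ± 0.065) and ZFAS1 (0.18 ± 0.043). All of these turned negative without scaling (-0.08, -0.07 and -0.08), where the median of all genes was -0.25. With ERCC scaling GAS5, ZFAS1, SNHG8 and SNHG12 kept the call as higher. SNHG5, SNHG15 or both lost the call without any 1 of the 8 untreated libraries of these lines (0.16 to 0.22 for SNHG5 and 0.12 to 0.15 for SNHG15 where lost). Small nuclear RNAs took 27.5% and 27.3% of TPM in untreated CNOT4-AID cells at 8 h and 17.5% and 19.3% in untreated parental cells at 8 h, and the part of this was not tested.

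Under triptolide the hosts separated into 6 that were lost quickly and 4 that were not. Counts were scaled to ERCC RNA, so that a fall of the whole transcriptome stays visible. From 0 h to 3 h SNHG15, SNHG12, SNHG7, GAS5, SNHG1 and SNHG5 fell in each line (edgeR quasi-likelihood test, Benjamini-Hochberg adjusted p). These 6 of 10 compare with 3.51% of 16806 genes lower in CNOT1-AID, 27.6% in CNOT4-AID and 12.3% in parental cells. SNHG8, SNHG6, ZFAS1 and SNHG16 did not pass in any line.

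SNHG15 was lost fastest. Its ERCC-scaled counts at 3 h were 14.4% and 16.1% of the 0 h mean in CNOT1-AID cells, 12.3% and 13.8% in CNOT4-AID cells and 12.8% and 15.2% in parental cells. The log2 changes were -2.71 ± 0.35, -2.94 ± 0.35 and -2.84 ± 0.35 (adjusted p = 9.07e-12, 1.01e-14 and 1.72e-13). At 12 h it stood at 7.64% and 8.54% in CNOT1-AID cells, at 1.85% and 3.43% in CNOT4-AID cells and at 5.65% and 6.27% in parental cells. SNHG12 stood at 14.3% and 19.1% at 3 h in CNOT1-AID cells, at 15.5% and 16.4% in CNOT4-AID cells and at 18.1% and 19.5% in parental cells. Its log2 changes were -2.58 ± 0.34, -2.65 ± 0.34 and -2.41 ± 0.34. In all 3 lines every 3 h library of these hosts lay far below both 0 h libraries.

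GAS5 had 4785.1 and 5328.6 ERCC-scaled counts at 0 h and 976.9 and 1131.4 at 3 h in CNOT1-AID cells, and 3715.8 and 4092.7 at 0 h and 1155.0 and 1217.7 at 3 h in parental cells. In CNOT4-AID cells it had 5691.2 and 4577.1 at 0 h and 1176.9 and 1277.8 at 3 h. The log2 changes were -2.26 ± 0.34 in CNOT1-AID, -2.06 ± 0.33 in CNOT4-AID and -1.72 ± 0.33 in parental cells. SNHG1 changed by -1.97 ± 0.33, -2.36 ± 0.34 and -1.68 ± 0.33 in CNOT1-AID, CNOT4-AID and parental cells, and SNHG7 by -1.85 ± 0.34, -2.15 ± 0.34 and -1.86 ± 0.34. SNHG5 changed least of the 6, by -1.36 ± 0.33, -1.48 ± 0.33 and -1.32 ± 0.33. It lost the call in CNOT1-AID cells without 0 h replicate 2 (-1.31) or 3 h replicate 1 (-1.13), and in parental cells without 3 h replicate 2 (-1.12).

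The slow hosts kept most of their RNA at 3 h. SNHG16 stood at 82.0% and 118% of its 0 h mean in CNOT1-AID cells, 67.1% and 74.0% in CNOT4-AID cells and 96.2% and 99.1% in parental cells. ZFAS1 stood at 68.2% and 80.7%, 65.2% and 65.8%, and 80.4% and 81.3% in CNOT1-AID, CNOT4-AID and parental cells. SNHG6 ranged from 72.9% to 87.1% and SNHG8 from 53.8% to 70.3% over the 6 libraries at 3 h. With TMM scaling in place of ERCC the fall of SNHG8 passed in CNOT1-AID (-0.74) and parental cells (-0.48), and that of ZFAS1 in CNOT1-AID cells (-0.54).

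**Figure D3:**
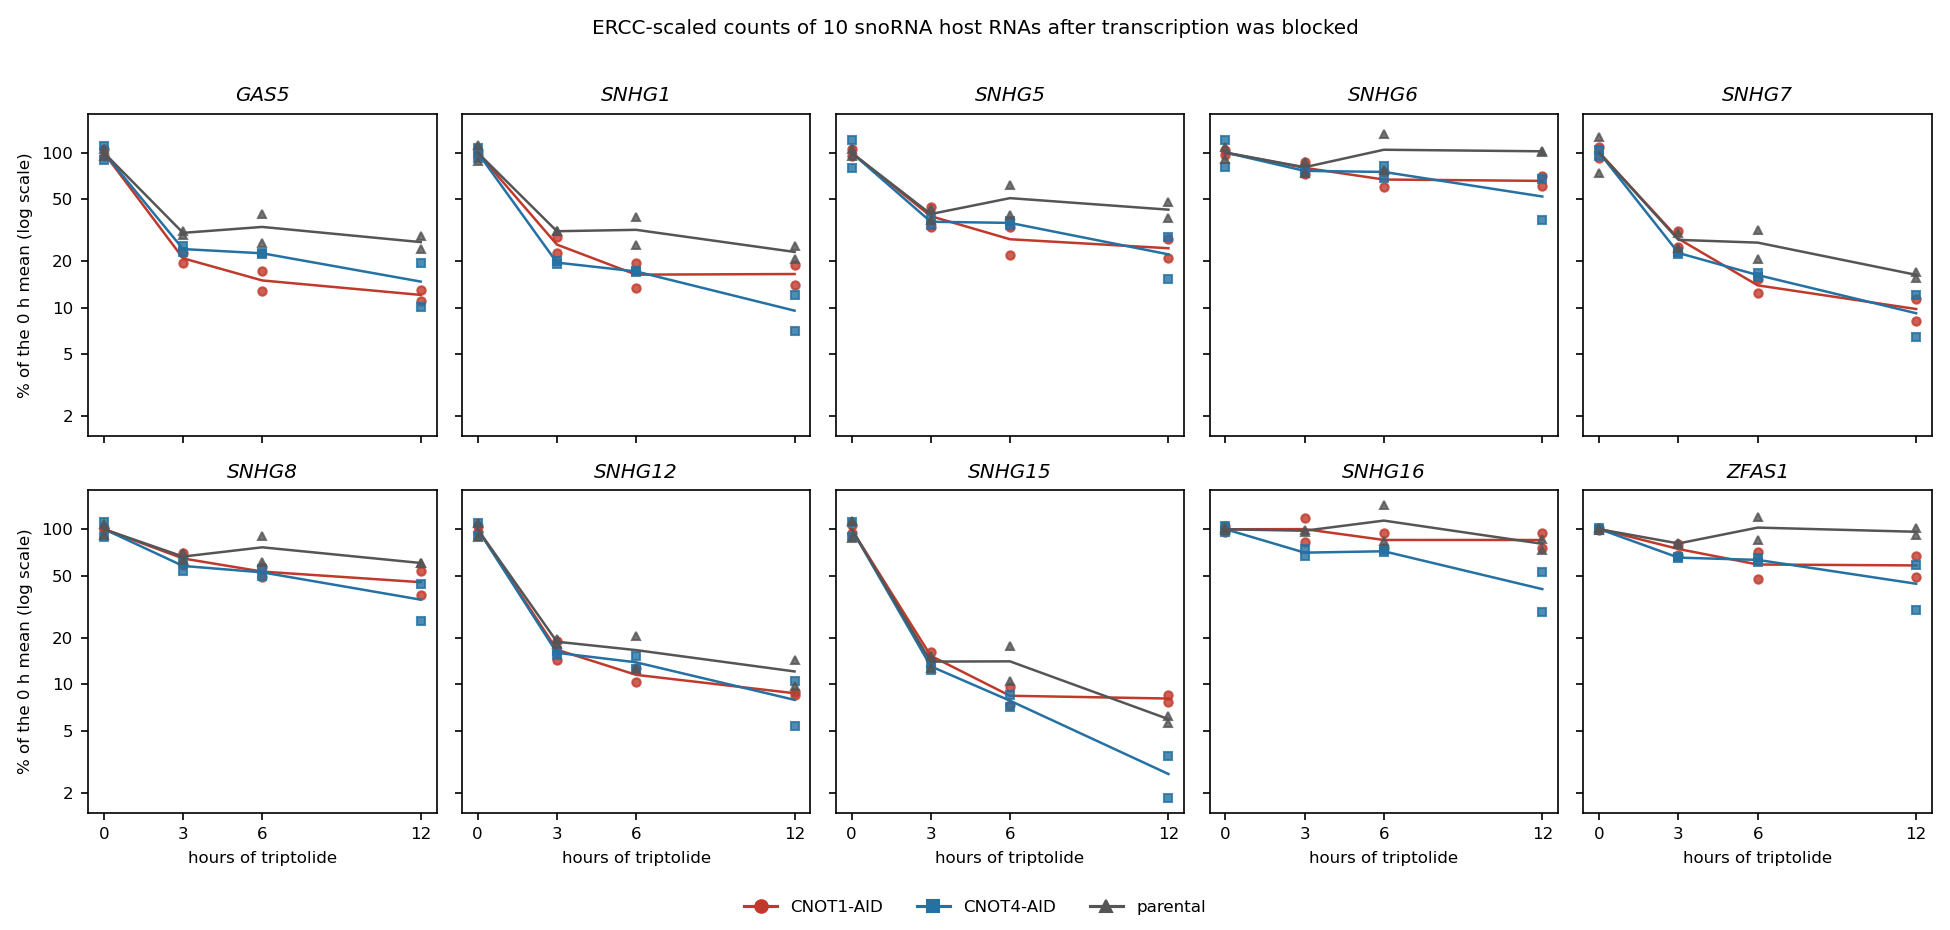
ERCC-scaled counts of each host as a percentage of its line's 0 h mean (y axis, log scale) against hours of triptolide (x axis) in CNOT1-AID, CNOT4-AID and parental cells; points are libraries and lines join the means of 2. SNHG15 falls to between 12.3% and 16.1% at 3 h in all lines, while SNHG16 stays between 67.1% and 118%.

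After 3 h the fast hosts differed in how much more was lost. GAS5 in parental cells stood at 29.6% and 31.2% at 3 h, 26.2% and 40.2% at 6 h and 23.9% and 29.1% at 12 h. In CNOT1-AID cells it stood at 19.3% and 22.4%, then 12.8% and 17.2%, then 11.1% and 13.1%. The mean for SNHG15 in CNOT4-AID cells was 13.1% at 3 h, 7.83% at 6 h and 2.64% at 12 h, and that for SNHG7 in CNOT1-AID cells was 27.9%, 13.9% and 9.82%. Since the first 3 h took a large share of the loss, no half-life is given. The fitted slopes passed as below 0 for 7 hosts in CNOT1-AID cells (11.7% of all genes), for 10 in CNOT4-AID cells (83.5%) and for 5 in parental cells (44.2%). By sign alone, 10, 10 and 8 of the 10 slopes lay below 0 in CNOT1-AID, CNOT4-AID and parental cells. Without the 0 h libraries 1 host passed in CNOT1-AID cells (SNHG7, -0.152) and 2 in parental cells (SNHG15, -0.146, and SNHG7, -0.088), while 9 passed in CNOT4-AID cells, led by SNHG15 (-0.265), with SNHG6 (-0.07) losing the call. In parental cells GAS5 and SNHG1 lost the call without 0 h replicate 1 (-0.12 and -0.146), 0 h replicate 2 (-0.11 and -0.123) or 12 h replicate 2 (-0.139 and -0.156), which left 3 hosts. GAS5 alone lost it without 6 h replicate 1 (-0.131) or 12 h replicate 1 (-0.162), and SNHG5 gained it without 3 h replicate 2 (-0.086). In CNOT1-AID cells SNHG1 and SNHG8 lost it without 0 h replicate 1 (-0.169 and -0.075), 0 h replicate 2 (-0.168 and -0.08) or 12 h replicate 2 (-0.209 and -0.078), and ZFAS1 gained it without 12 h replicate 1 (-0.089). In CNOT4-AID cells the slopes of SNHG16, ZFAS1, SNHG6 and SNHG8 (-0.1, -0.09, -0.074 and -0.117 log2 units per hour) turned positive with TMM scaling (0.037, 0.047, 0.064 and 0.022). ERCC RNA took 2.25% and 3.92% of counts in the CNOT4-AID libraries at 12 h, and the part of this in their slopes was not tested.

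The decay of the hosts was not shown to differ between lines. Between CNOT1-AID and parental slopes 0 of 10 hosts passed in edgeR, against 16.5% of all genes, between CNOT4-AID and parental slopes 0, against 0.137%, and between CNOT1-AID and CNOT4-AID slopes 0, against 42.9%. At an unadjusted p below 0.05 there were 0, 4 and 1 hosts, against 3949, 6528 and 8497 of all 16806 genes. DESeq2 with the same ERCC factors called 0, 1 and 1. Most genes called in edgeR had higher slopes in CNOT1-AID cells: 2603 of 2766 against parental and 7166 of 7204 against CNOT4-AID cells. The medians of these differences were 0.017 and 0.091 over all genes and -0.05 and 0.027 for the hosts. Of the 10 hosts, 8 and 1 lay below 0. The differences CNOT1-AID minus parental ran from -0.095 ± 0.069 (GAS5) to 0.032 ± 0.089 log2 units per hour (SNHG15), with adjusted p of 0.218 at the lowest, and the SE shows that sizeable differences could have been missed. With TMM scaling 4 hosts had lower slopes in CNOT1-AID than in parental cells: ZFAS1 (-0.097), SNHG6 (-0.089), SNHG8 (-0.072) and SNHG16 (-0.027), the last of which stood at 0.002 with ERCC scaling. Without CNOT4-AID 12 h replicate 1, 4 hosts had lower slopes in CNOT4-AID than in parental cells: ZFAS1 (-0.136), SNHG6 (-0.12), SNHG16 (-0.107) and SNHG8 (-0.105). Between CNOT1-AID and CNOT4-AID cells SNHG16 passed without that library (0.109), CNOT4-AID 6 h replicate 2 (0.082) or CNOT1-AID 3 h replicate 2 (0.084), and SNHG15 passed without the 0 h libraries (0.179).

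For the first 3 h of triptolide alone, 0 hosts differed between CNOT1-AID and parental cells, against 3.06% of all genes, and 0 between CNOT4-AID and parental cells, against 0.0298%. No host had an unadjusted p below 0.05 in either (1469 and 512 of all genes did), and DESeq2 also called 0 in each. GAS5 showed the largest of these differences between CNOT1-AID and parental cells (-0.54 ± 0.45), and with TMM scaling it passed (-0.74). The median of all genes differed by 0.23 between CNOT1-AID and parental cells and that of the hosts by -0.045.

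At 0 h of triptolide, after 2 h of auxin, 0 hosts differed between CNOT1-AID and parental cells with TMM scaling in edgeR, against 14.2% of all genes, with 2 at an unadjusted p below 0.05 (4478 of all genes) and 1 in DESeq2. Between CNOT4-AID and parental cells SNHG1 (0.64 ± 0.14, adjusted p = 0.00414) and ZFAS1 (0.42 ± 0.12, 0.0264) were higher, against 1080 of all 16806 genes (11.4% differed in either direction). Both comparisons rest on the parental pair that differed most. Without parental replicate 1, 4 hosts passed between CNOT1-AID and parental cells (SNHG16 -0.32, GAS5 -0.25, SNHG1 -0.22 and SNHG7 0.30), and without parental replicate 2, 3 passed (ZFAS1 0.51, SNHG5 0.53 and SNHG1 0.42), so that the sign of SNHG1 turned on which library was kept. For CNOT4-AID, leaving out parental replicate 2 gave 5 hosts, with SNHG1 at 1.03, ZFAS1 at 0.63, SNHG5 at 0.40, GAS5 at 0.27 and SNHG7 at -0.39. Leaving out parental replicate 1 gave SNHG1 at 0.40 and ZFAS1 at 0.30. Leaving out CNOT4-AID replicate 2 left SNHG1 alone (0.74), with ZFAS1 at 0.41.

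The early loss of the hosts was set beside their steady-state response, which comes from other libraries. Across the 10 hosts, the parental log2 change over the first 3 h of triptolide and the 24 h minus 8 h change of the auxin response in CNOT1-AID cells had a Pearson r of 0.847 and a Spearman rho of 0.806. The same pair of measures over all 14102 genes in both fits gave r of -0.00401 and rho of -0.0742. SNHG16, at -0.03 of early loss, moved least (-0.54), and SNHG15, at -2.84, moved most (-0.98). Against the 8 h response r was -0.537 and rho -0.503, and against the 24 h response r was -0.236 and rho -0.212. These are descriptions over 10 genes that share libraries and scaling, with no test.

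**Figure D4:**
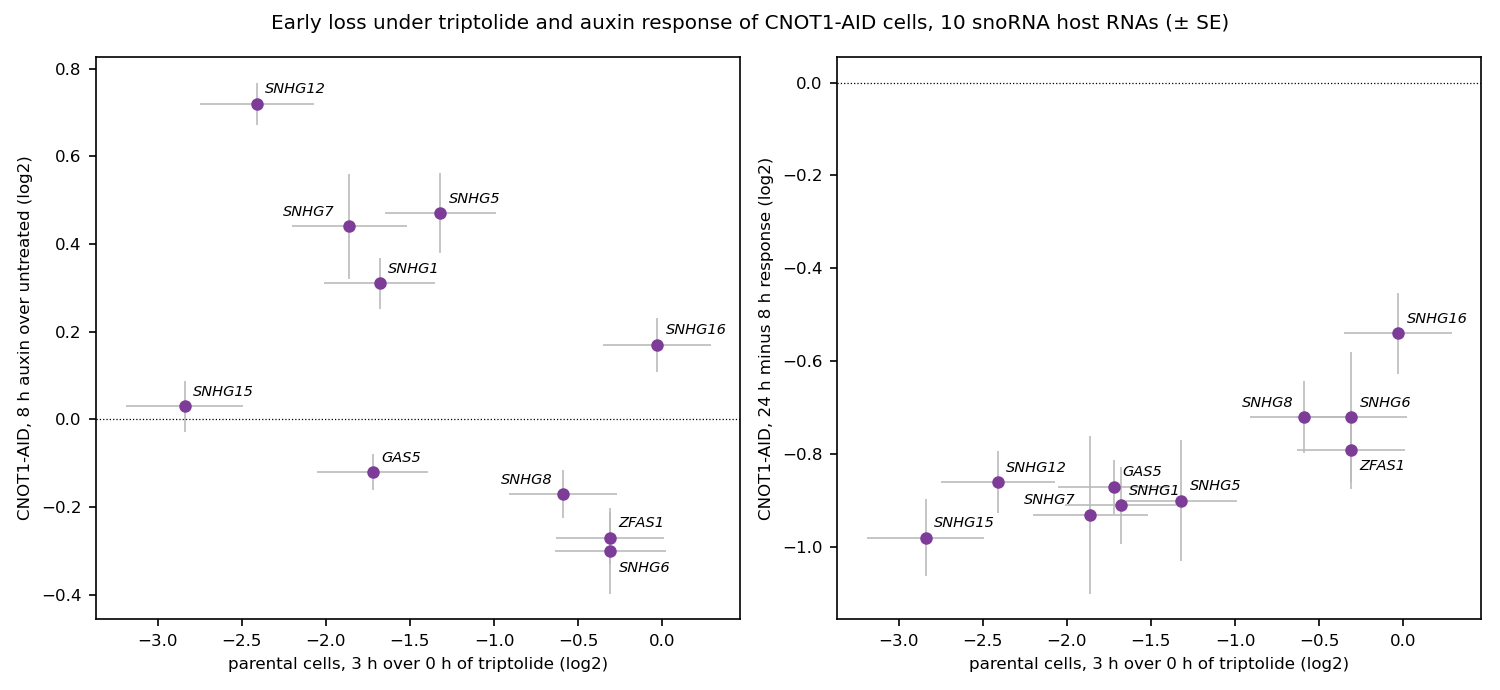
Log2 change over the first 3 h of triptolide in parental cells (x axis) against the response of CNOT1-AID cells to 8 h of auxin (left) and the 24 h minus 8 h change of that response (right); each point is 1 host and bars are ± SE. On the right, the 6 fast hosts lie between -0.98 and -0.86 and the 4 slow hosts between -0.79 and -0.54.

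Other snoRNA hosts and the proteins of the pathway were read from lists. Their counts are to be read against all 14921 genes, of which 4933 rose and 4441 fell at 8 h, 5472 rose and 5198 fell at 24 h, and 2602 moved up and 2820 down from 8 h to 24 h. No test between lists was run. Of 16 other non-coding hosts tested in CNOT1-AID cells, 0 rose and 10 fell at 8 h (median -0.41) and 1 rose and 14 fell at 24 h (median -0.85). SNHG18 (-1.32 ± 0.085) and DANCR (-0.79 ± 0.058) led the falls at 8 h, SNHG9 (-1.43 ± 0.099) and LRRC75A-AS1 (-1.41 ± 0.050) those at 24 h, and SNHG17 rose at 24 h (0.24 ± 0.070). From 8 h to 24 h, 1 of these 16 moved up and 8 down, with a median of -0.43. With ERCC scaling 6 rose and 2 fell at 8 h (median 0.032), and 1 rose and 12 fell at 24 h.

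Of the ribosomal protein genes that host snoRNAs, all 23 tested fell at 8 h (median -0.42), 1 rose and 18 fell at 24 h (median -0.29), and from 8 h to 24 h 5 moved up and 0 down (median 0.099). RPSA, a protein of the small subunit, stood at -1.13 ± 0.060 at each time. With ERCC scaling 2 rose and 3 fell at 8 h, and 0 moved up or down from 8 h to 24 h. A C with at least 4 pyrimidines stood at the start of 9 of 15 of these genes with an entry, against 4 of 16 other non-coding hosts. Under triptolide 0 of the 23 fell in the first 3 h in CNOT1-AID or in parental cells, while 6 and 8 of the 16 other non-coding hosts did.

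Of 18 other protein-coding hosts, 12 rose and 3 fell at 8 h and 11 rose and 2 fell at 24 h, led by the ribosome assembly factor PPAN (1.54 ± 0.077 and 2.10 ± 0.077). TPT1 (-0.46 ± 0.053 and -0.42 ± 0.053) and RACK1 (-0.39 ± 0.049 and -0.23 ± 0.049), whose mRNAs also begin with an oligopyrimidine start, were lower at each time. With ERCC scaling none of the 18 fell. Of 10 proteins that assemble snoRNAs into particles, 6 rose and 2 fell at 8 h and 7 rose and 2 fell at 24 h, led by the assembly factors NUFIP1 (1.25 ± 0.063 and 1.85 ± 0.063) and NAF1 (1.17 ± 0.050 and 1.72 ± 0.050). With ERCC scaling 10 and 8 of them rose and none fell. NOP56, NOP58 and DKC1 stand in both of these lists, so their changes are counted in each.

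Of 14 nonsense-mediated decay factors, 9 rose and 1 fell at 8 h, and 5 rose and 4 fell at 24 h, with medians of 0.36 and 0.015; the counts at 24 h are close to the shares over all genes. SMG8, a regulator of the kinase SMG1, rose by 1.56 ± 0.067 at 8 h and 2.39 ± 0.067 at 24 h, while SMG5, an adaptor that binds phosphorylated UPF1, fell by 0.19 ± 0.064 and 1.26 ± 0.064. From 8 h to 24 h 5 moved up and 7 down, with a median of -0.40, with no test between these mRNAs and the hosts. With ERCC scaling 14 rose at 8 h, and 7 rose and 2 fell at 24 h. In parental cells auxin changed 0 genes of any of these 5 lists at 8 h or 24 h.

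The snoRNAs inside the hosts were only partly measured. GENCODE 29 places 26 snoRNA genes inside 9 of the 10 hosts on the same strand. It places none inside GAS5, which does not show that GAS5 carries none, since only annotated genes were matched. All 14 shorter than 100 nt, each with a C/D box name, were listed at 0 in every steady-state library, and 11 of the 12 others were above 0 in at least 1 library. Of the 26, 21 lie wholly inside an annotated exon of some host transcript, so host and snoRNA could share reads. Some of the 26 lie over each other: both entries of SNORA17B, both of SNORA16A, and SNORA17A with RF00560. Counts of snoRNA genes may thus hold the same RNA more than once. SNORA24 of SNHG8 and SNORA9 of SNHG15, both H/ACA box snoRNAs, and SNORD27 of SNHG1, a C/D box snoRNA, show the difference in length. Capitals mark the ACA box that lies 3 bases before the end of the H/ACA snoRNAs, and the C box TGATGA and D box CTGA of SNORD27.
SNORA24: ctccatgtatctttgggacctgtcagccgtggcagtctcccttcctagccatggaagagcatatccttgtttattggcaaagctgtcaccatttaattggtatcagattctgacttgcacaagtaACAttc
SNORA9: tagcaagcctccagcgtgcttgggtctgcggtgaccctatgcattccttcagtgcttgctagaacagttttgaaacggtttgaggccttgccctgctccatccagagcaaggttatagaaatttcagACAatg
SNORD27: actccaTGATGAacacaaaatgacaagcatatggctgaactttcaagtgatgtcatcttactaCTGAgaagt
They lie at chr4:118279190-118279320 (plus, SNORA24), chr7:44985378-44985510 (minus, SNORA9) and chr11:62855012-62855083 (minus, SNORD27) of GRCh38. Of 943 annotated snoRNAs 29.8% hold ACA at that place, and 21.4% hold TGATGA in the first 20 bases with CTGA in the last 12.

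SNORA24 had 271 and 314 TPM in CNOT1-AID cells with auxin at 8 h and 387 and 352 TPM untreated, and 92.6 and 147 TPM with auxin at 24 h and 112 and 134 TPM untreated. Neither difference passed (-0.64 ± 0.55 and -0.33 ± 0.55), while its host SNHG8 was at -0.17 and -0.89. SNORA9 had 84.1 and 51.8 TPM with auxin at 8 h and 92.6 and 65.2 TPM untreated, and 60.6 and 86.8 TPM with auxin at 24 h and 81.2 and 43.4 TPM untreated, groups that overlapped (-0.53 ± 0.72 and 0.03 ± 0.72), while SNHG15 fell by 0.95 at 24 h. SNORD22 of SNHG1, at 126 nt the most abundant of them (mean 913 TPM), did not pass at 8 h or 24 h (-0.47 ± 0.23 and -0.28 ± 0.23). Of 11 tested, 0 rose and 1 fell at 8 h and 1 rose and 0 fell at 24 h, in each case SNORA44 of SNHG12, which was above 0 in 14 of 24 libraries and at 0 in both CNOT1-AID libraries with auxin at 8 h. The SE of SNORA24 and SNORA9 was many times that of their hosts.

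Under triptolide, SNORA24, SNORA9 and SNORD22 had lower slopes in CNOT1-AID than in parental cells, while their hosts did not pass; the difference between snoRNA and host was not tested. They are 3 of 7 snoRNA entries that were lower, of 9 tested, against 163 of all 16806 genes that were lower (16.5% differed in either direction). These entries may include some that lie over each other. The slope of SNORA24 was -0.252 ± 0.044 in CNOT1-AID cells and 0.124 ± 0.041 log2 units per hour in parental cells (difference -0.377 ± 0.059, edgeR adjusted p = 7.46e-06), against a difference of -0.038 ± 0.033 for SNHG8. That of SNORA9 was -0.343 ± 0.063 in CNOT1-AID cells and 0.173 ± 0.053 in parental cells (difference -0.516 ± 0.082, adjusted p = 2.71e-06), and that of SNORD22 was -0.21 ± 0.05 in CNOT1-AID cells and 0.143 ± 0.046 in parental cells (difference -0.353 ± 0.067, adjusted p = 0.000479). A positive slope after transcription is blocked is a rise relative to ERCC RNA. At 0 h SNORA24 was higher in CNOT1-AID than in parental cells by 2.05 ± 0.53 and SNORD22 by 1.63 ± 0.45, a comparison that rests on the parental pair that differed most. Small nuclear RNAs moved the same way: they took 1.72% and 1.64% of counts at 0 h and 1.18% and 1.11% at 12 h in CNOT1-AID cells, and 1.09% and 0.926% at 0 h and 1.88% and 2.64% at 12 h in parental cells. A difference in the decay of these snoRNAs and a shift of small RNA in the libraries cannot be told apart here, and the part of the parental 0 h pair in the slopes was not tested.

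Several hosts overlap genes on the opposite strand. Exons of MCMDC2 cover 29.3% of SNHG6, those of FAM69B 25.2% of SNHG7, those of AC015802.6 30.6% of SNHG16, and those of ZNFX1 11.1% of ZFAS1. The kit keeps the strand, but the strand setting of the counting is not given in the sources used here, so reads of SNHG6, SNHG7, SNHG16 and ZFAS1 could hold some of these neighbours. GAS5, SNHG1, SNHG5, SNHG8, SNHG12 and SNHG15 had at most 1.2% of their exons covered in this way.

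The profile shared by the 10 hosts over the 12 steady-state groups was closest to that of 5 protein-coding genes among 9461 with a mean of at least 5 TPM: OSBPL3 (Pearson r 0.978), GATD1 (0.976), TUBGCP6 (0.968), RTEL1 (0.968) and ATXN7L3 (0.961). Of the hosts themselves, SNHG1 (0.99) and SNHG15 (0.97) lay closest to this shared profile and SNHG12 (0.713) farthest. Each host is part of the mean that makes up this profile, which raises its own r. The r values of hosts therefore cannot be set beside those of the 5 other genes. All these r values are descriptions over 12 group means of 2 libraries each.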

How the data were processed

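RNA from DLD-1 cells was measured in 24 steady-state and 24 triptolide libraries, with 2 libraries per group, grouped by their titles. Per the submitters' processing notes, STAR 2.5.1b, RSEM, featureCounts, SAMtools, DESeq2 and the builds hg38 and GRCh38 were used; their roles, and the strand setting of the counting, are not given in the sources used here. The authors deposited TPM for the steady-state set, so its depth is unknown, and raw counts per gene for the triptolide set. All columns matched a library (0 left over). The members and gene lists were chosen with earlier results of these data known.

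TPM of 14921 genes (at least 1 TPM in 2 libraries) were TMM-scaled and tested as log2(TPM + 0.5) with limma 3.58.1 over all 24 libraries (12 residual degrees of freedom), so fold changes of low genes are understated. No count test was run on TPM. Triptolide counts of 16806 genes were tested with the quasi-likelihood test of edgeR 4.0.16 in R 4.3.3. Library sizes came from 56 ERCC sequences for slopes and for 3 h minus 0 h, and from TMM for 0 h levels. p-values were adjusted over all genes tested (Benjamini-Hochberg, threshold 0.05). Both fits were also run on simulated libraries with independent noise, with the same spread beyond counting noise for every gene in the counts. Such data hold no difference like that within the parental 0 h pair, so they do not show how the tests behave there. Alternatives were other scalings, filters and pseudocounts, DESeq2 1.42.0, a replicate block, the compared groups only, and each library left out in turn. All 10 members are named. From each other list at most the 2 largest rises and 2 largest falls among called genes with a mean of at least 5 TPM are named, and of the snoRNAs at most the 2 most abundant per host. Of the snoRNAs so allowed, those described were picked after their values were seen, and SNORD27 is shown for its sequence only. Gene models are from GENCODE 29, and start sequences from RefSeq. Python 3.11.15, pandas 2.3.3 and matplotlib 3.10.9 made the tables and figures.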

Additional observations from a re-analysis of the deposited data

Results flagged for a closer look

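Responses that differed between CNOT1-AID and parental cells, or between 8 h and 24 h within CNOT1-AID cells, are gathered here; each was tested as a difference in the limma fit. At 8 h the auxin response was higher in CNOT1-AID than in parental cells for SNHG12 (0.77), SNHG5 (0.54), SNHG7 (0.49) and SNHG1 (0.35), and lower for GAS5 (-0.16), a sign that ERCC scaling turned. At 24 h it was lower for GAS5 (-0.94), ZFAS1 (-0.94), SNHG8 (-0.87), SNHG15 (-0.80), SNHG6 (-0.79), SNHG1 (-0.53), SNHG7 (-0.51), SNHG5 (-0.37) and SNHG16 (-0.34).

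The CNOT1-AID response at 24 h was lower than that at 8 h for SNHG15 (-0.98), SNHG7 (-0.93), SNHG1 (-0.91), SNHG5 (-0.90), GAS5 (-0.87), SNHG12 (-0.86), ZFAS1 (-0.79), SNHG6 (-0.72), SNHG8 (-0.72) and SNHG16 (-0.54). SNHG12, SNHG5, SNHG7, SNHG1 and SNHG16 changed sign between these times with TMM scaling; SNHG12 was higher at both with ERCC scaling. Groups held 2 libraries, too few to test any single library as an outlier.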

How the results depend on the processing

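Over single hosts, 148 of the alternative values lost the call and 49 gained one. A further 46 turned the direction of a host called in the main or the alternative run. The other 3537 were counted as the same, including changes of sign where neither run called the host. The cause was not tested. At 8 h in CNOT1-AID cells, no scaling put ZFAS1 at 0.03, GAS5 at 0.17 and SNHG8 at 0.13, and ERCC scaling put them at 0.20, 0.35 and 0.30 and SNHG6 at 0.17. At 24 h, 6 hosts passed with no scaling and 6 with ERCC scaling, and SNHG12 stood at 0.12 and 0.21. In CNOT4-AID cells 0 hosts passed at 8 h with ERCC scaling, with no filter, without the variance trend, or in the compared groups only. At 24 h, 0 passed with no scaling, ERCC scaling or the compared groups only and 1 without the trend, and ERCC scaling put SNHG12, SNHG15 and GAS5 at 0.05, 0.03 and 0.08. For CNOT1-AID minus parental responses at 8 h, 8 passed with ERCC scaling and 3 in the compared groups only; GAS5 stood at 0.04 with no scaling and 0.38 with ERCC scaling, and SNHG8 at 0.39 with ERCC scaling. At 24 h, 5 passed with no scaling and 4 with ERCC scaling, where SNHG16 stood at 0.01. Between untreated CNOT1-AID and parental cells 0 passed with no scaling, 0 with ERCC scaling and 1 in the compared groups only. Between untreated CNOT4-AID and parental cells 2 passed with no scaling, where SNHG16 stood at -0.21, ZFAS1 and GAS5 at -0.08, SNHG12, SNHG1 and SNHG8 at -0.10, SNHG5 at -0.07, SNHG15 at -0.12 and SNHG6 at -0.25.

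Triptolide slopes passed for 1 host in CNOT1-AID and 2 in parental cells without 0 h. In CNOT4-AID cells the slopes of SNHG16, ZFAS1, SNHG6 and SNHG8 were 0.037, 0.047, 0.064 and 0.022 log2 units per hour with TMM and 0.039, 0.048, 0.066 and 0.024 with DESeq2 size factors; library totals gave 4 calls, with ZFAS1 at 0.007 and SNHG6 at 0.025. The parental slope of SNHG16 was 0.037 with TMM and 0.039 with DESeq2 size factors. Between CNOT1-AID and parental slopes 4 passed with TMM (SNHG16 at -0.027), 3 with DESeq2 size factors and 1 with library totals. Between CNOT4-AID and parental slopes DESeq2 with ERCC factors gave 1. Between CNOT1-AID and CNOT4-AID slopes 4 passed with TMM (SNHG16 -0.028, ZFAS1 -0.079, SNHG6 -0.082, SNHG8 -0.082), 3 with DESeq2 size factors (ZFAS1 -0.074, SNHG6 -0.077, SNHG8 -0.077), 1 in DESeq2 with ERCC factors and 1 without 0 h. At 0 h DESeq2 called 1 host between CNOT1-AID and parental cells, and ERCC scaling 1 between CNOT4-AID and parental cells. For 3 h minus 0 h, TMM called 1 host between CNOT1-AID and parental cells.

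With single libraries left out, the number of hosts called ranged as follows. In CNOT1-AID cells it was 6 to 8 at 8 h, 9 to 10 at 24 h and 10 to 10 for the difference between them. In CNOT4-AID cells it was 0 to 1 at 8 h and 0 to 2 at 24 h. Against the parental response it was 3 to 5 at 8 h and 8 to 9 at 24 h for CNOT1-AID. Untreated, it was 0 to 3 for CNOT1-AID and 5 to 6 for CNOT4-AID. Slopes gave 5 to 8 in CNOT1-AID, 9 to 10 in CNOT4-AID and 3 to 6 in parental cells, and their differences 0 to 4 (CNOT4-AID minus parental, 4 without CNOT4-AID 12 h replicate 1) and 0 to 1 (CNOT1-AID minus CNOT4-AID). At 0 h it was 0 to 4 for CNOT1-AID, with SNHG1 at -0.22 without parental replicate 1 and 0.42 without parental replicate 2, and 1 to 5 for CNOT4-AID.

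Groups share replicate numbers 1 and 2, and nothing in the labels ties libraries of the same number. Between auxin and untreated groups of a line and time, deviations of such libraries correlated between -0.207 and 0.102. With 2 libraries a group, these values cannot tell whether libraries of the same number shared a culture or a batch. With the replicate block 9 hosts passed at 8 h, 10 at 24 h and 10 for the difference in CNOT1-AID cells. With 2 libraries a group, and unknown depth in the steady-state set, small differences could not be resolved.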
